A study of Mus musculus with 11 samples.

Results

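The collagen genes encode the chains of the collagen superfamily, the main structural proteins of the extracellular matrix. They were taken as every row of a mouse lateral habenula count table whose symbol is Col, a number, a and a number, with at least 110 counts over the 11 libraries, an average of 10 per library. Of the 54532 genes in the table, 44 had such a symbol and 43 reached the minimum. Col4a6 was just inside with 115 counts, and Col10a1 was left out with 57.

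The libraries were made from total RNA of dissected lateral habenula (LHb), a small nucleus beside the third ventricle, in a study of rheumatoid arthritis and depression-like behaviour. All mice were BALB/c and 3 months old, and no engineered allele is named. Collagen antibody-induced arthritis (CAIA) was set off by an intraperitoneal cocktail of 5 antibody clones against type II collagen at 50 mg/kg, with lipopolysaccharide at 1 mg/kg given 3 days later, while controls got vehicle. The groups were 3 female controls, 3 females with CAIA, 2 male controls (numbered 1 and 3) and 3 males with CAIA. No group had antibody without lipopolysaccharide, so their effects cannot be told apart. The labels do not say that each library came from a separate animal, and p-values measure the spread between these libraries.

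Every collagen is a helix of chains with glycine repeats, and the classes differ in what they build. Fibrillar collagens form the tensile fibres of connective tissue, which in the brain lie mostly in the meninges and around large vessels. Type IV collagens form the sheet-like network of basement membranes, under endothelium and under the epithelium of the choroid plexus. FACITs (fibril-associated collagens with interrupted helices) sit on fibres, type VI builds beaded filaments, type VIII a hexagonal lattice, multiplexins bridge basement membranes to other matrix, and transmembrane collagens are anchored in the cell surface.

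Total counts were 25317306 to 29565006 per library, and the collagen genes took 0.0667% to 0.0928% of them. All 11 habenula markers were detected in every library, with a summed level of 1417 to 1697 CPM (counts scaled to library size) in controls and 1502 to 1811 in CAIA. The level of Ttr, which encodes the carrier protein transthyretin and is the leading transcript of choroid plexus epithelium, varied far more. It was 1469, 1996 and 3289 CPM in female controls 1, 2 and 3, and 29.2, 27 and 29.8 in females with CAIA. In male controls 1 and 3 it was 2704 and 2577, and in males with CAIA 1, 2 and 3 it was 65.6, 1188 and 305. All 6 CAIA libraries were thus below all 5 controls in Ttr, and male CAIA library 2 was closest to them. The 12 choroid plexus markers summed to 2683 to 5581 CPM in controls and 236 to 2104 in CAIA, and none was at 0 in any library.

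Per kilobase of exon, the most abundant collagen was Col25a1, a transmembrane collagen of neurons also found in amyloid plaques, at 17.5 ± 2.62 CPM per kb (mean ± SD, n = 11 libraries). It was followed by the basement membrane chain Col4a2 at 10.3 ± 1.47, the FACIT chain Col9a3 at 9.83 ± 3.98 and the second main basement membrane chain Col4a1 at 7.05 ± 0.801. The place of Col9a3 differed between the treatments. It was at 13.7 ± 1.42 CPM per kb in the 5 controls and 6.57 ± 1.47 in the 6 CAIA libraries, while Col4a2 was at 11.1 ± 1.81 and 9.64 ± 0.777 and Col4a1 at 7.49 ± 0.841 and 6.68 ± 0.6. By its mean Col9a3 was thus above both type IV chains in controls and below Col4a2 in CAIA, where its values overlapped those of Col4a1. Col18a1, the multiplexin that carries endostatin, was at 6.06 ± 0.967 CPM per kb. At the low end, Col4a6, Col6a4 and Col6a5 were at 0.0483, 0.054 and 0.0665 CPM per kb. The plot of levels per kilobase shows that type IV chains hold both the second place and the last.

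**Figure D1:**
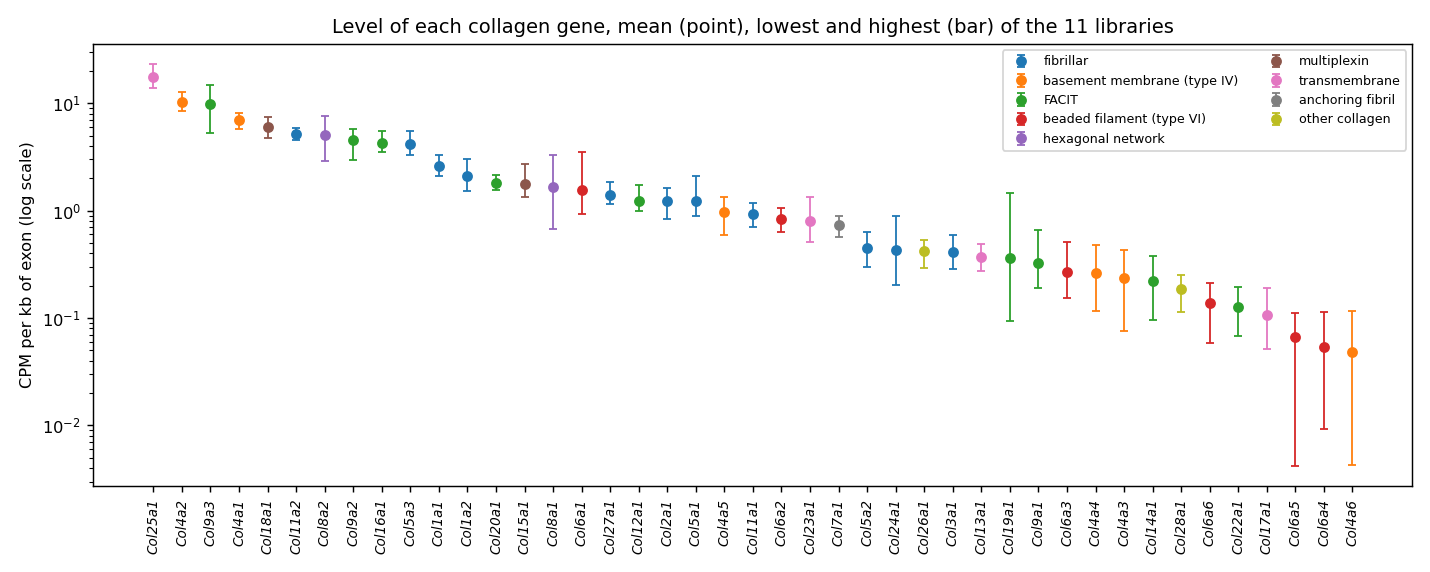
Level of the 43 collagen genes in CPM per kilobase of exon on a log axis, ordered from high to low, with the mean as a point, the lowest and highest of the 11 libraries as a bar, and the structural class as colour. Col25a1 is highest at a mean of 17.5 and Col4a6 lowest at 0.0483, and type IV chains occur at both ends.

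The comparison of CAIA with control asked which collagen transcripts differ in the LHb of arthritic mice. Over both sexes, 4 of the 43 collagen genes fell in CAIA and none rose, at an adjusted p under 0.05 in edgeR's quasi-likelihood test with Benjamini-Hochberg adjustment over the 19619 genes tested. They were Col9a3, Col8a2, Col4a4 and Col1a1. Of all genes tested, 0.596% passed in either direction, 0.576% as lower and 0.0204% as higher. These 4 were also the only collagen genes whose CAIA libraries all lay below all controls, against 1.01% of all genes, and none lay wholly above, against 0.168%. The fold changes of 35 of the 43 were negative, against 50% of all genes, and their median was -0.17 on the log2 scale against 0.00 over all genes. At an unadjusted p under 0.05, 12 were lower, against 3.92% of all genes, and 13 were different in either direction, against 6.36%. All 43 had enough counts to be tested.

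The collagen genes together summed to 838 ± 68.5 CPM over the 5 controls and 720 ± 34.8 over the 6 CAIA libraries (mean ± SD), with the highest CAIA library at 767 just above the lowest control at 760. By class, the median log2 fold change was -0.14 over the 11 fibrillar genes, -0.44 over the 6 type IV genes and -0.16 over the other 26. Among those 26 it was -1.07 for the type VIII chains, -0.14 for the 9 FACITs, -0.13 for the 6 type VI genes and -0.18 for the 4 transmembrane genes. The 4 genes that fell came from 4 classes, and the other members of those classes did not pass. In bulk tissue, fewer cells of a type and less RNA per cell cannot be told apart, and this holds for every value here.

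**Figure D2:**
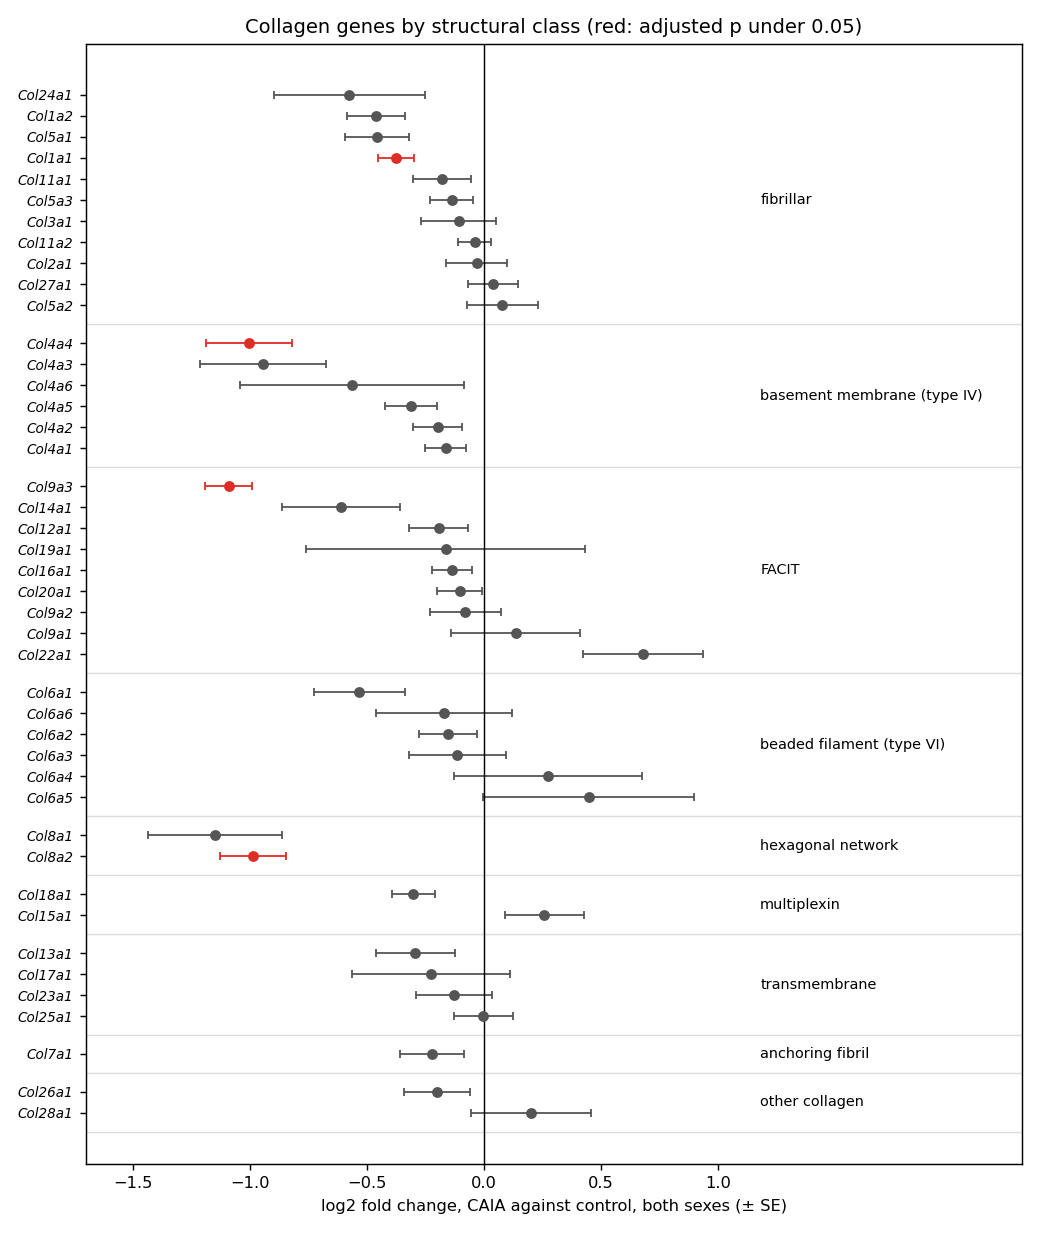
Log2 fold change of each collagen gene, CAIA against control over both sexes, with its standard error as a bar, grouped by structural class and with genes at an adjusted p under 0.05 in red. Points left of the line at 0 are lower in CAIA: 35 of 43 lie there, and the 4 in red are Col1a1, Col4a4, Col9a3 and Col8a2.

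Type VIII collagen is a short-chain, network-forming collagen best known from the cornea and vessel walls, and is built from the chains Col8a1 and Col8a2. Col8a2 was at 27.5, 34 and 34 CPM in female controls 1, 2 and 3, at 12.9, 16.0 and 13.4 in females with CAIA, at 29.5 and 29.6 in male controls, and at 13.0, 23.9 and 14.1 in males with CAIA. Every CAIA library was lower than every control, and male CAIA library 2, the one with the most Ttr, stood between the other CAIA libraries and the controls. Col8a2 fell by 0.99 ± 0.14 (log2 fold change ± SE over both sexes, adjusted p = 0.00796 in edgeR's quasi-likelihood test), a 1.98-fold lower level. Without male control 1 the log2 fold change was -0.99 with an adjusted p of 0.0854, and with any other library left out Col8a2 still passed.

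Col8a1 was at 12.8, 19.4 and 25.8 CPM in female controls, 5.26, 11 and 6.08 in females with CAIA, 15.9 and 19.9 in male controls, and 5.52, 9.74 and 13.1 in males with CAIA. CAIA was lower within each sex, but the highest CAIA male passed the lowest control female by a small margin. The log2 fold change was -1.15 ± 0.29, as large as that of its partner, with an adjusted p of 0.251 by edgeR's quasi-likelihood test, which missed the threshold. DESeq2 and limma-voom called Col8a1 at the same size of fall (-1.15, adjusted p = 0.0353, and -1.20, adjusted p = 0.0397). Without a filter on low counts edgeR called Col8a1 at the same fold change (-1.15, adjusted p = 6.7e-24), but 470 of all genes then passed in place of 117. The adjusted p thus moved from 0.251 with no change in the size of the fall, and is not added support for it. The log2 ratio of Col8a1 to Col8a2 counts was -0.75 ± 0.28 in controls and -0.94 ± 0.50 in CAIA (SD, n = 5 and 6). The difference of -0.19 was within the spread (exact permutation of treatment within sex, two-sided p = 0.52).

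Because both chains were lower in CAIA within each sex, their promoter windows are shown here, from RefSeq on GRCm38.p6. They run from 250 bases before to 50 after the annotated start, 5′ to 3′ on the strand of the gene. Capitals mark matches to GGGCGG, the GC box, or to CCAAT, on either strand, so that CCGCCC and ATTGG are matches on the other strand.
Col8a1 (chr16:57754688-57754987, minus strand): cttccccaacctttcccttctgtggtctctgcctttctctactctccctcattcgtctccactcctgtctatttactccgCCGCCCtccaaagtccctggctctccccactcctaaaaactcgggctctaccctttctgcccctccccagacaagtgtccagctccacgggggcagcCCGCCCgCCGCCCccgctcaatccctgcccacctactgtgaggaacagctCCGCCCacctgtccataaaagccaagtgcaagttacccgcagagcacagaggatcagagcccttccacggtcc
Col8a2 (chr4:126286544-126286843, plus strand): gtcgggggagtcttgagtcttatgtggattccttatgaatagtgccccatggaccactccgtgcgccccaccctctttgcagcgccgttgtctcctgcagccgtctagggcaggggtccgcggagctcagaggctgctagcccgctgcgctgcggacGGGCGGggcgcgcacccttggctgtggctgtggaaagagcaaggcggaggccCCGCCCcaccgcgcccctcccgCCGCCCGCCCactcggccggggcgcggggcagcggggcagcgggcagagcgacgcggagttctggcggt

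Both windows held 4 matches to GGGCGG, 2 of which overlap in Col8a2, and neither held CCAAT, the TATA box sequence TATAAA or the OTX-type motif TAATCC on either strand. GGGCGG was in 22 of the 34 collagen genes with a window and in 35.7% of the 32851 RefSeq windows. A gene counts if any of its windows holds a match, so a count by gene and a share of windows are unlike measures. The base composition of the windows was 60.3% GC in Col8a1 and 71.7% in Col8a2, against a median of 52.7% over all windows, and a match is only a description of the letters.

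Type IV collagen exists as several networks: Col4a1 and Col4a2 assemble in nearly all basement membranes, and Col4a3, Col4a4 and Col4a5 in specialised ones such as the glomerulus of the kidney. Among the 6 genes, only Col4a4 fell. It was at 3.97, 4.56 and 5.07 CPM in female controls, 1.49, 2.13 and 1.24 in females with CAIA, 3.09 and 3.00 in male controls, and 1.74, 2.87 and 1.76 in males with CAIA. The groups did not overlap, although male CAIA library 2 came close to the male controls. Col4a4 fell by 1.00 ± 0.18 on the log2 scale (adjusted p = 0.0236 in edgeR's quasi-likelihood test). This call rests on all libraries together: leaving out 1 library kept it in 4 of 11 fits and gave an adjusted p of 0.0513 to 0.0854 in the other 7, which were those without female control 2 or 3, female CAIA 1 or 3, male control 1 or male CAIA 1 or 3.

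Col4a3, whose start lies 72 bp from that of Col4a4 on the opposite strand, was at 2.10, 3.46 and 3.88 CPM in female controls and 1.92, 1.67 and 0.756 in females with CAIA. In male controls it was at 2.3 and 4.27, and in males with CAIA at 1.5, 2.67 and 1.62. Its CAIA and control values overlapped in males, and its log2 fold change of -0.94 ± 0.27 had an adjusted p of 0.267 by edgeR's quasi-likelihood test. The ratio of Col4a3 to Col4a4 differed by 0.08 on the log2 scale between treatments, which was within the spread (exact permutation p = 0.755). Col4a3 shares 563 exon bases, 5.65% of its length, with C430014B12Rik on the other strand, a gene with 31 counts over all libraries.

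Col4a1 and Col4a2 are a second pair of opposed genes, with starts 21 bp apart. Col4a1 was at 60.9, 60.5 and 47.4 CPM in female controls, 50.0, 53.0 and 47.2 in females with CAIA, 59.8 and 50.9 in male controls, and 55.4, 50.8 and 42.7 in males with CAIA. Its groups overlapped, with a log2 fold change of -0.16 ± 0.09. Col4a2 ran with it, from 55.7 to 84.5 CPM in controls and from 57.8 to 70.2 in CAIA, with -0.20 ± 0.10, and neither passed. Col4a5, the partner of Col4a3 and Col4a4 in the specialised network, was lower in all 3 CAIA females (6.19 to 6.63 CPM) than in their controls (8.01 to 9.06) but overlapped in males, with -0.31 ± 0.11 over both sexes and no pass. Col4a6 was near the limit of detection at 0.0343 to 0.92 CPM.

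The ratio of Col4a4 to Col4a5 counts was lower in CAIA on average: its log2 value was -0.92 ± 0.07 in controls and -1.64 ± 0.53 in CAIA (SD, n = 5 and 6). It was lower by 0.72 (exact permutation of treatment within sex, two-sided p = 0.01, and 0.0333 adjusted over 10 pairs of chains). The difference was -1.08 in females and -0.37 in males. Without any single library the difference over both sexes stayed between -0.84 and -0.62. The ranges overlapped slightly, with the lowest control at -1.01 and the highest CAIA library at -0.98. The ratios were examined after the fold changes were known, and 3 of the 10 pairs passed, this one and the 2 of type IX described further on.

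The windows of Col4a4, which fell, and Col4a1, which did not pass, are given to compare the opposed pairs, with the same marks.
Col4a4 (chr1:82586800-82587099, minus strand): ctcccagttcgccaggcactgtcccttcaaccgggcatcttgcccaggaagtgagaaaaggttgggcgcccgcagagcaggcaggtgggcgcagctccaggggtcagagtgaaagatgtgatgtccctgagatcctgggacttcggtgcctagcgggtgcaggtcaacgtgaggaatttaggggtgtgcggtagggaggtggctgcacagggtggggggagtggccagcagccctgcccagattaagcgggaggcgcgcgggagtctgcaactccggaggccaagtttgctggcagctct
Col4a1 (chr8:11312777-11313076, minus strand): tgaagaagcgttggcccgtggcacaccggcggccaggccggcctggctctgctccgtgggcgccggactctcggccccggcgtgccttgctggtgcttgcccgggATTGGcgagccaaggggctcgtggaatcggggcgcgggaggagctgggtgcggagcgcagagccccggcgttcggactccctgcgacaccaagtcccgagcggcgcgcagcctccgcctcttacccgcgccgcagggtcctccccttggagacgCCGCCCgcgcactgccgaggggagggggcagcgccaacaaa

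The Col4a4 window held none of the 4 motifs searched, and it contains the start of Col4a3. The Col4a1 window held CCAAT on the other strand at -145 to -141 from the start, and GGGCGG on the other strand at 10 to 15. CCAAT was in 13 of the 34 collagen genes with a window and in 37.4% of all windows, TATAAA in 4 and in 13.6%, and TAATCC in 0 and in 7.06%, again by gene and by window.

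Among the FACITs, Col9a3 had the strongest difference of all collagen genes by its p. Type IX collagen decorates type II fibres in cartilage, and its molecule is made of 1 chain each from Col9a1, Col9a2 and Col9a3. Col9a3 was at 43.8, 56.9 and 52.3 CPM in female controls, 20.6, 22.7 and 21.7 in females with CAIA, 57.2 and 54.3 in male controls, and 26.6, 36.1 and 24.4 in males with CAIA. All CAIA libraries were below all controls with a clear gap, and male CAIA library 2 was again the highest of the CAIA libraries. Col9a3 fell by 1.09 ± 0.10 on the log2 scale, 2.13-fold (adjusted p = 0.000406 in edgeR's quasi-likelihood test), and passed with any 1 library left out, at an adjusted p of 9.56e-06 to 0.00563. It shares 234 exon bases, 6.07% of its length, with Tcfl5 on the other strand, a gene with 38 counts over all libraries.

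The other chains of type IX did not pass. Col9a2 was at 15.8, 17.2 and 9.26 CPM in female controls, 12.4, 16.6 and 13.8 in females with CAIA, 17.7 and 12.4 in male controls, and 13.9, 13.2 and 12.9 in males with CAIA, and its groups overlapped (log2 fold change -0.08 ± 0.15). Col9a1 was low, at 0.973 to 3.34 CPM, with 0.14 ± 0.28. The log2 ratio of Col9a3 to Col9a2 counts was 1.9 ± 0.41 in controls and 0.86 ± 0.34 in CAIA (SD, n = 5 and 6), a difference of -1.05 (exact permutation of treatment within sex, two-sided p = 0.01, and 0.0333 adjusted over the 10 pairs). The ratio to Col9a1 differed by -1.32 with the same p-values. With any 1 library left out these differences were -1.16 to -0.90 and -1.56 to -1.18. Both ratios share Col9a3 and were chosen after the fold changes were known. They describe the fall of Col9a3 beside chains that did not pass, and are not separate evidence for it. The adjustment over the 10 pairs does not cover this choice.

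The remaining FACITs did not pass. Col16a1, an adapter between fibres and other matrix, was at 23.9 to 37.6 CPM in controls and 24.8 to 33.0 in CAIA (log2 fold change -0.14 ± 0.09). Col22a1, known from junctions of muscle and tendon, was the only collagen gene higher in CAIA at an unadjusted p under 0.05, with 0.68 ± 0.26 and an adjusted p of 0.587 by edgeR's quasi-likelihood test. Its values were 0.817, 0.628 and 1.53 CPM in female controls, 1.53, 1.12 and 1.27 in females with CAIA, 0.677 and 0.796 in male controls, and 1.34, 1.81 and 1.22 in males with CAIA, so that female control 3 alone lay among the CAIA libraries.

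**Figure D3:**
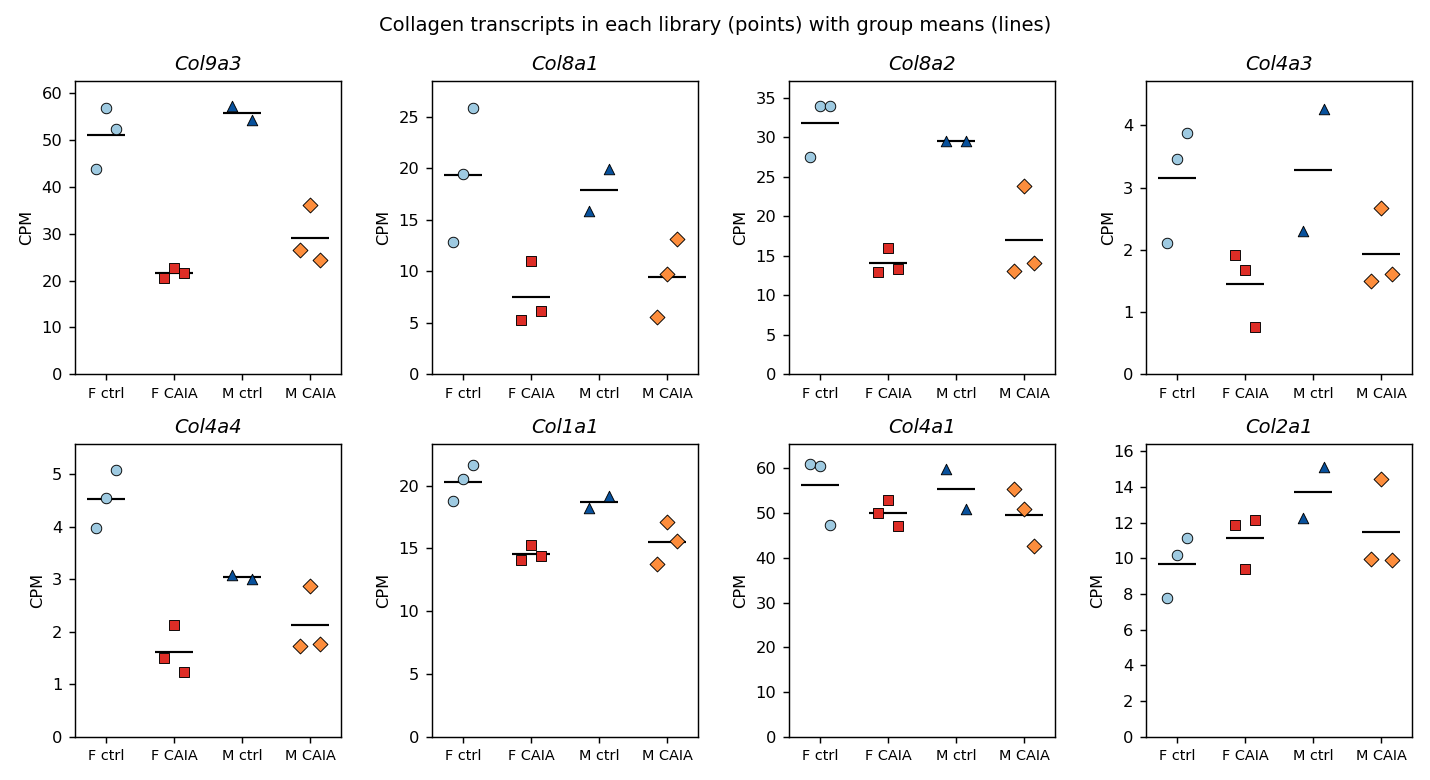
Level in CPM on axes from 0 of 8 collagen genes in each library, with points for libraries in the 4 groups (F female, M male, ctrl control) and lines for group means. In Col9a3, Col8a2, Col4a4 and Col1a1 all CAIA points lie below all control points, while Col4a1 and Col2a1 overlap.

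Of the fibrillar collagens, Col1a1 fell. It encodes the main chain of type I collagen, the bulk collagen of meninges, skin and bone. Col1a1 was at 18.8, 20.5 and 21.6 CPM in female controls, 14.1, 15.3 and 14.4 in females with CAIA, 18.2 and 19.2 in male controls, and 13.8, 17.1 and 15.6 in males with CAIA. The groups did not overlap, but the fall was small, 0.37 ± 0.08 on the log2 scale or 1.30-fold (adjusted p = 0.0469 in edgeR's quasi-likelihood test). It passed in only 2 of the 11 fits with 1 library left out, those without female control 1 or male CAIA 2, and the adjusted p was 0.0842 to 0.152 in the other 9, whichever other library was left out.

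Col1a2, the second type I chain, was at 29.3, 32.0 and 37.8 CPM in female controls, 21.2, 22.3 and 18.8 in females with CAIA, 23.7 and 32.6 in male controls, and 19.0, 30.1 and 22.1 in males with CAIA. Its log2 fold change of -0.46 ± 0.12 had an adjusted p of 0.219 by edgeR's quasi-likelihood test, and with 1 library left out it passed in 1 of 11 fits, that without male CAIA 2 (-0.57, adjusted p = 0.0243). Without a filter on low counts, where many more genes of the table pass, edgeR called it at the same fold change (-0.46, adjusted p = 5.71e-05). This is not added support for the fall. The ratio of Col1a1 to Col1a2 did not differ beyond the spread, with a log2 difference of 0.09 (exact permutation p = 0.435).

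Col2a1 encodes type II collagen, the antigen of the injected antibodies and the main fibre of cartilage. It was at 7.78, 10.2 and 11.1 CPM in female controls, 11.9, 9.42 and 12.1 in females with CAIA, 12.3 and 15.1 in male controls, and 9.98, 14.4 and 9.92 in males with CAIA. The groups overlapped in both sexes, and the log2 fold change was -0.03 ± 0.13. Col11a2 and Col5a3, the most abundant fibrillar chains per kilobase, had log2 fold changes of -0.04 ± 0.07 and -0.14 ± 0.09. Of the 11 fibrillar genes, 9 had negative fold changes and 1 passed.

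None of the 6 type VI genes passed. Type VI filaments anchor cells and vessels to the surrounding matrix, and their common molecule joins the chains of Col6a1, Col6a2 and Col6a3. Col6a1 was at 15.3, 6.52 and 8.41 CPM in female controls, 5.41, 5.20 and 4.09 in females with CAIA, 5.76 and 6.58 in male controls, and 5.25, 5.97 and 7.01 in males with CAIA. CAIA females were below control females, males overlapped, and the log2 fold change was -0.53 ± 0.19 (adjusted p = 0.556 in edgeR's quasi-likelihood test), or -0.31 without female control 1. Col6a2 and Col6a3 had -0.15 ± 0.12 and -0.11 ± 0.21.

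The multiplexins went opposite ways without passing: Col18a1 had a log2 fold change of -0.30 ± 0.09 (adjusted p = 0.321 in edgeR's quasi-likelihood test) and Col15a1 of 0.26 ± 0.17. Col25a1, the most abundant collagen, was at 181 to 300 CPM in controls and 205 to 257 in CAIA, with -0.00 ± 0.13. The other transmembrane genes Col13a1 and Col23a1, Col7a1 of the anchoring fibrils of skin, and Col26a1 and Col28a1 had log2 fold changes between -0.29 and 0.20, and none passed.

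In females alone, Col9a3, Col8a2 and Col4a4 fell, by 1.24 ± 0.13, 1.17 ± 0.19 and 1.48 ± 0.25 on the log2 scale (adjusted p = 0.00409, 0.0285 and 0.0269 in edgeR's quasi-likelihood test), against 0.255% of all genes that passed as lower and 0.0051% as higher. At an unadjusted p under 0.05 there were 15, all lower, against 5.22% of all genes in either direction and 4.06% lower. Fold changes were negative in 32 of 43, against 50.4%. Without any 1 of the female CAIA libraries, none of the 3 passed, and 0 of all genes did. Col9a3 was then at -1.19 to -1.28 (adjusted p = 0.0589 to 0.0893 in edgeR's quasi-likelihood test). Without female control 2 or 3 only Col9a3 of the 3 passed, among 29 and 1 of all genes. Col8a2 also missed the threshold without male control 1 or 3 (adjusted p = 0.098 and 0.0993). In the same libraries the 12 meningeal fibroblast markers summed to 87.5 to 110 CPM in female controls and 64.1 to 74.4 in females with CAIA, without overlap, and 1 of them passed, while the choroid plexus markers summed to 2683 to 5581 and 236 to 255. Their part in the falls was not tested. In females, 14 collagen genes lay wholly below controls, against 6.39% of all genes, and 1, the type VI gene Col6a4, wholly above, against 5.08%.

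In males 0 collagen genes passed by edgeR's quasi-likelihood test, and neither did any other gene (0%). At an unadjusted p under 0.05 there were 6 of the 43, against 5.63% of all genes, and 5 of these were lower, against 2.5%. Fold changes were negative in 29 of 43, against 50.2%. The log2 fold changes were -0.94 ± 0.15 for Col9a3, -0.80 ± 0.21 for Col8a2, -0.52 ± 0.27 for Col4a4 and -0.27 ± 0.12 for Col1a1. Both male controls were above all 3 CAIA males in 8 collagen genes, these 4 included, against 8.51% of all genes, and below them in 5, against 9.18%. DESeq2 called Col9a3 and Col8a2 in males, among 68 of all genes. Without male CAIA 2 edgeR called Col9a3 and Col8a2 in males, among 36 of all genes.

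The difference between the sexes in the CAIA effect passed for 0 of the 43 genes and for 0% of all genes, and 6 collagen genes had an unadjusted p under 0.05, against 4.11%, 5 of them more negative in females, against 2.98%. The difference was negative in 32 of 43, against 52% of all genes. DESeq2 also called 0 collagen genes, and 2 of all genes. For Col9a3 the female effect minus the male effect was -0.29 ± 0.20, for Col8a2 -0.38 ± 0.28 and for Col4a4 -0.96 ± 0.37 (log2, adjusted p = 0.978 for each in edgeR's quasi-likelihood test). So a call in females and none in males does not show that the sexes differed.

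**Figure D4:**
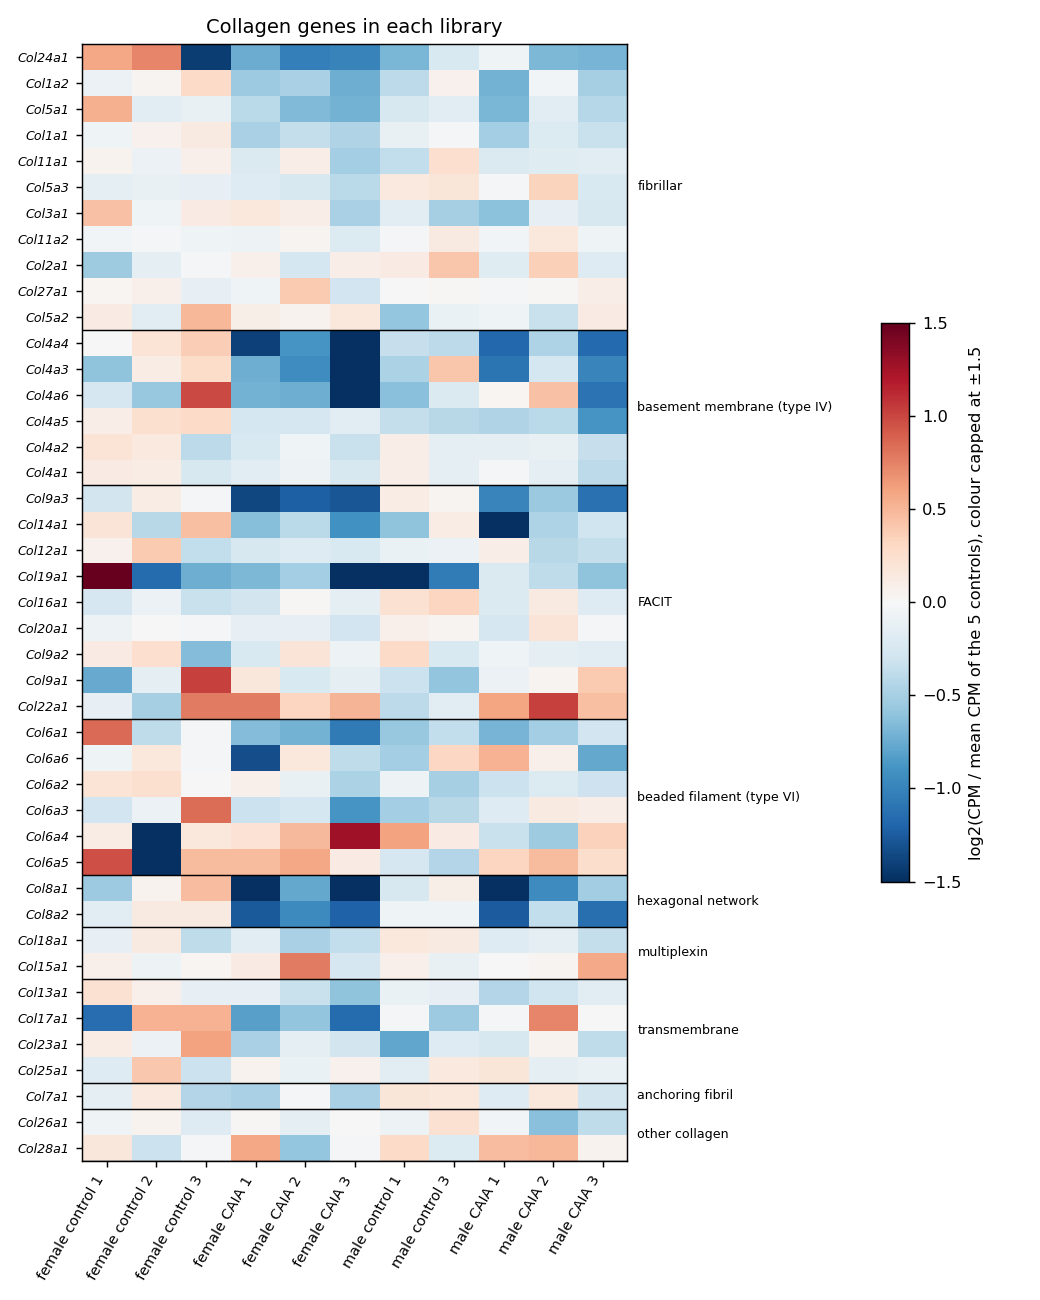
Each collagen gene (rows, by class) in each library (columns) as the log2 ratio of its CPM to the mean of the 5 controls, blue lower and red higher, with the colour capped at 1.5 in either direction. Blue runs through the 6 CAIA columns in Col4a3, Col4a4, Col9a3, Col8a1 and Col8a2, is paler there in male CAIA 2 than in most, and follows no treatment in most other rows.

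The range of Ttr within some groups allowed a second question: whether collagen levels followed Ttr between libraries of the same group. Ttr ran from 65.6 to 1188 CPM in males with CAIA and from 1469 to 3289 in female controls. It hardly differed among females with CAIA (27 to 29.8) or between male controls (2577 and 2704), so these groups add little to the slope. A slope on log2 Ttr was fitted beside the 4 group means, so that only differences within groups count, and a slope of 1 means a level that doubles when Ttr doubles. None of the 43 collagen genes passed, against 0.117% of all genes, by edgeR's quasi-likelihood test with Benjamini-Hochberg adjustment; DESeq2 also called 0, and 37 of all genes. At an unadjusted p under 0.05 there were 5, against 3.48% of all genes, and 4 of them were positive, against 2.68%. Slopes were positive in 30 of 43, against 51.3% of all genes, with a median of 0.04.

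The lowest p was that of Col8a2, with a slope of 0.21 ± 0.05 (unadjusted p = 0.00088, adjusted p = 0.373 in edgeR's quasi-likelihood test). Col1a2 had 0.17 ± 0.05, Col2a1 0.15 ± 0.06 and Col9a3 0.11 ± 0.05, all positive, and Col12a1, a FACIT of dense connective tissue, had -0.15 ± 0.06. Leaving out male CAIA 2, the library with the most Ttr in its group, brought the slope of Col9a3 to -0.01, and slopes of Col8a2 over all libraries left out were 0.08 to 0.33. Of the 10 pairs of libraries within a group, Col2a1, Col4a5 and Col9a1 followed the order of Ttr in 8, and 3 of 43 at 8 or more compares with 8% of all genes. For Col8a2, Col4a4 and Col1a1 it was 7 pairs and for Col9a3 6. The pairs among females with CAIA and the pair of male controls rank libraries of nearly equal Ttr. These counts are thus a weak measure of agreement with Ttr.

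With Ttr in the model, the treatment difference passed for no gene, collagen or other, over both sexes or in females, and in males for 1 gene that is not a collagen. The standard errors then grew, to 0.23 for Col9a3 (log2 fold change -0.59), 0.25 for Col8a2 (-0.03), 0.46 for Col4a4 (-0.18) and 0.19 for Col1a1 (0.00). Ttr and treatment move together in these libraries, so their parts in the collagen differences cannot be told apart.

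**Figure D5:**
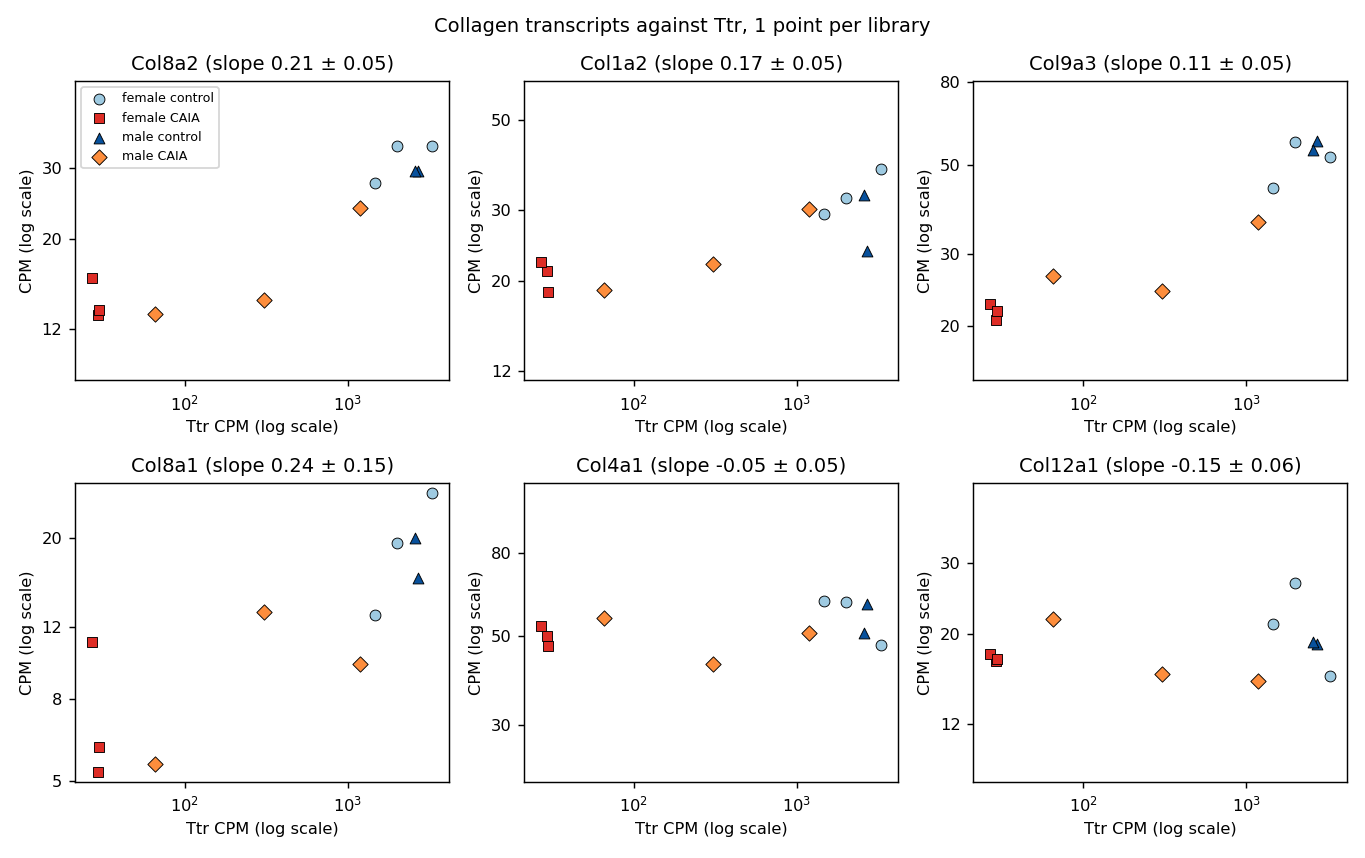
CPM of 6 collagen genes against CPM of Ttr, both on log axes, with 1 point per library and the group as shape and colour, and the within-group slope with its standard error above each panel. The 3 males with CAIA spread from 65.6 to 1188 CPM of Ttr, and the highest of them has the highest Col8a2, Col1a2 and Col9a3 of its group. It does not have the highest Col8a1, Col4a1 or Col12a1 of its group.

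Genes that make, process and remove collagen were examined as fixed lists. Of 20 genes for modification and folding in the cell, none passed over both sexes and the median log2 fold change was -0.01; the collagen chaperone gene Serpinh1 had -0.29 ± 0.09 (adjusted p = 0.445 in edgeR's quasi-likelihood test). Of 14 genes for processing and crosslinking outside the cell, 3 fell and none rose, against 0.576% and 0.0204% of all genes. Pcolce, whose protein enhances removal of the procollagen C-propeptide, had 23.1 ± 2.78 CPM in the 5 controls and 8.17 ± 3.54 in the 6 CAIA libraries (mean ± SD), and fell by 1.54 ± 0.19 on the log2 scale (adjusted p = 0.00631 in edgeR's quasi-likelihood test). The crosslinking oxidase genes Loxl2 and Loxl1 fell by 1.5 ± 0.26 and 0.98 ± 0.20 (adjusted p = 0.0145 and 0.0409 in edgeR's quasi-likelihood test).

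Of 10 tested genes for degradation, 2 fell, against 0.576% of all genes that passed as lower. The gelatinase gene Mmp2 fell by 1.31 ± 0.18 and Fap, a protease of activated fibroblasts, by 2.17 ± 0.32 (adjusted p = 0.0059 and 0.00728 in edgeR's quasi-likelihood test). Of 15 basement membrane partners of type IV collagen, the nidogen gene Nid2 fell by 1.62 ± 0.21 (adjusted p = 0.00666 in edgeR's quasi-likelihood test). The perlecan gene Hspg2 and the laminin gene Lama5 had -0.49 ± 0.11 and -0.51 ± 0.12 and did not pass. None of 10 collagen receptors passed; the uptake receptor gene Mrc2 and the receptor kinase gene Ddr2 had -0.49 ± 0.12 and -0.47 ± 0.13. None of 10 TGF-beta ligands, binding proteins and receptors passed; the latent binding protein gene Ltbp3 had -0.29 ± 0.06 and the co-receptor gene Tgfbr3 -0.56 ± 0.13. Pcolce and Nid2, unlike any collagen gene, also passed the slope on Ttr, with 0.29 ± 0.05 and 0.38 ± 0.06 (adjusted p = 0.0407 and 0.0423 in edgeR's quasi-likelihood test).

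Markers of other cells that the dissection could hold were examined beside these differences. The 12 choroid plexus markers all had negative fold changes, with a median of -3.17 on the log2 scale. Over both sexes 5 passed, against 0.576% of all genes that passed as lower. Of the 11 other than Ttr, 9 had a slope on Ttr that passed, against 0.117% of all genes. The 12 meningeal fibroblast markers, chosen without collagens, summed to 69.7 to 110 CPM in controls and 59.7 to 103 in CAIA, with 9 negative fold changes, a median of -0.22 and 1 pass, Igf2. In females all 12 were negative with a median of -0.49, and in males 6 of 12 with a median of -0.01. The 10 endothelial markers summed to 425 to 487 CPM in controls and 426 to 472 in CAIA, with 1 pass, Kdr, and the mural markers to 213 to 258 and 204 to 228, with none. Pineal markers summed to 12.9 to 24.7 CPM in controls and 12.6 to 43.5 in CAIA, with 6 of 7 positive, a median of 0.91 (females 1.59, males 0.73) and no pass, and Asmt, Tph1, Crx, Lhx4 and Gngt1 were at 0 in some libraries. The 6 hippocampal markers summed to 265 to 339 CPM and 298 to 417, with 5 positive, a median of 0.34 (-0.01 for females alone, 1.09 for males alone, where the sums of 265 to 269 and 313 to 417 did not overlap) and no pass. The 6 thalamus markers summed to 1068 to 1980 CPM in controls and 1398 to 1869 in CAIA, with a median of -0.01 and no pass. Their fold changes were positive in 6 of 6 in females and negative in 5 of 6 in males. The 6 oligodendrocyte and precursor markers summed to 3736 to 5174 CPM and 3710 to 4507, with a median of 0.01 and no pass. None of the meningeal, endothelial, mural or hippocampal markers was at 0 in any library, and the part of each cell type in the collagen differences was not tested.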

How the data were processed

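Total RNA of dissected lateral habenula was sequenced in 11 libraries, grouped by sex and treatment from the sample titles. The authors deposited 1 table of raw counts, whole reads for each gene, and the submitters' processing notes name featureCounts 1.5.0-p3 HISAT2 2.0.5, cutadapt 1.9.1 and the build GRCm38. Neither strandedness nor the annotation used is given in the sources used here, and reads of overlapping genes cannot be told apart. The counts, as deposited, were filtered with filterByExpr by group (19619 of 54532 genes), scaled by TMM and fitted as 4 group means with edgeR 4.0.16 under R 4.3.3 (glmQLFit robust, glmQLFTest) with 7 residual degrees of freedom. The sexes had equal weight, the groups shared 1 estimate of the spread because there were only 2 male controls, and the Benjamini-Hochberg adjustment ran over all genes tested, with a threshold of 0.05. The slope on Ttr added log2 CPM of Ttr to the group means (6 residual degrees of freedom). Exon lengths and positions came from GENCODE M21 on GRCm38, which matched 54495 gene identifiers, and promoter windows from RefSeq. Libraries of a group differed by more than sampling noise, and each counted as 1 replicate. The fits were tested on simulated data.

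The collagen genes, lists and tests were chosen with earlier results of these data known. Named were collagens that passed, in each class the 3 highest per kilobase and the 2 with the lowest p, Col2a1, Col9a3 and Ttr, and from each list the members that passed or up to 3 with the lowest p. Single genes outside this rule, such as Col12a1, Col9a1 and Col4a6, were chosen after their values were seen, as were the ratios between 10 pairs of chains. As alternatives, the fits were repeated with DESeq2's size factors or plain totals, DESeq2 1.42.0, limma-voom (limma 3.58.1), no filter on low counts, a replicate block, Ttr in the model, other choroid plexus markers in place of Ttr, and each library left out in turn. With a male control left out, the lone library is assumed to vary like the other groups. Figures were drawn with matplotlib 3.10.9.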

Additional observations from a re-analysis of the deposited data

Results flagged for a closer look

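The CPM values of the 27 named collagen genes were examined over the 5 controls and over the 6 CAIA libraries, sexes joined, for a highest or lowest library far from the rest. Of these 54 sets, 7 stood out, and chance alone marks about 1 in 20. Male CAIA 2 was high in Col8a2, at 23.9 CPM against 12.9 to 16.0 in the other CAIA libraries, and in Col1a2, at 30.1 against 18.8 to 22.3. Female control 3 was high in Col6a3, at 6.13 CPM against 2.41 to 3.22 in the other controls, and in Col22a1, at 1.53 against 0.628 to 0.817. Female control 1 was high in Col6a1, at 15.3 CPM against 5.76 to 8.41. Male control 3 was high in Col11a2, at 39.4 CPM against 34.4 to 35.7. Female CAIA 2 was high in Col9a2, at 16.6 CPM against 12.4 to 13.9. Male CAIA 2 and female control 3 were also the libraries with the most Ttr in their groups, at 1188 and 3289 CPM, and the part of this in the high values was not tested.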

How the results depend on the processing

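The count of collagen genes that passed over both sexes was 4, and other size factors, DESeq2 and limma-voom gave 3 to 5. The gene gained with DESeq2 (215 of all genes called), limma-voom (137), and the replicate block (115) was Col8a1, at -1.15 to -1.24. The gene lost on plain total counts was Col1a1 (-0.386, adjusted p = 0.0701 in edgeR's quasi-likelihood test). The count was 10 without a filter on low counts, where 470 of all genes passed in place of 117, and 0 with Ttr in the model. In females it was 3 (51 of all genes), and 6 with DESeq2 (163), 11 without a filter (452) and 0 with Ttr in the model (0). In males it was 0 (0), and 2 with DESeq2 (68), 4 without a filter (423) and 1 with a replicate block (1). For the difference between the sexes and the slope on Ttr it was 0 (0 and 23 of all genes), and 2 and 1 without a filter (316 and 38). The cause of these shifts was not tested. With each library except the male controls left out in turn, the counts over both sexes were 2 to 5, with 43 to 168 of all genes. They were 0 to 3 in females (0 to 104) and 0 to 2 in males (0 to 36). For the sex difference they were 0 to 0 (0 to 0), and for the slope on Ttr 0 to 0 (1 to 23). A fit without a male control keeps 1 library in that group and is not counted here.

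With Ttr in the model the class medians moved from -0.14 to 0.00395 (fibrillar), -0.44 to -0.198 (type IV) and -0.16 to 0.00605 (other), and fold changes turned positive for Col11a2 (0.141), Col16a1 (0.183), Col1a1 (0.000685), Col1a2 (0.315), Col23a1 (0.325), Col2a1 (0.656), Col4a3 (0.12), Col5a3 (0.229), Col6a3 (0.604), Col7a1 (0.0168) and, in females, Col8a2 (0.12). None of these passed. Libraries left out gave medians of -0.19 to -0.113, -0.555 to -0.29 and -0.19 to -0.107, and turned the fold changes of Col11a2 (-0.0844 to 0.0081), Col23a1 (-0.267 to 0.0441), Col25a1 (-0.0827 to 0.127), Col2a1 (-0.141 to 0.0577), Col6a3 (-0.214 to 0.0983) and Col9a2 (-0.197 to 0.0527). Col25a1 was 0.0153 in limma-voom.

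Slopes on Ttr turned sign with a library left out for Col11a2 (-0.0244 to 0.067), Col13a1 (-0.137 to 0.0301), Col15a1 (-0.231 to 0.164), Col16a1 (-0.0177 to 0.0891), Col18a1 (-0.114 to 0.0189), Col28a1 (-0.149 to 0.16), Col4a1 (-0.207 to 0.00725), Col4a2 (-0.192 to 0.000758), Col4a5 (-0.116 to 0.219), Col5a3 (-0.0707 to 0.206), Col6a1 (-0.291 to 0.0573), Col6a2 (-0.0423 to 0.0256), Col7a1 (-0.113 to 0.0831) and Col9a3 (-0.00906 to 0.254). They also turned for Col15a1 in DESeq2 (-0.000236), Col18a1 on total counts (0.00331) and Col28a1 on the other choroid plexus markers (-0.00975).

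Control and CAIA libraries of a sex share replicate numbers, 1 to 3 in females and 1 and 3 in males. Same-numbered control and CAIA libraries of a sex did not deviate together, with correlations of -0.245 to 0.0764. Those of different number gave -0.271 to 0.271. With 2 male controls, the values for 1 male control mirror those for the other. The block thus rests on a number alone, and females were not compared with males. With the replicate block the counts were 5 over both sexes, 3 in females, 1 in males and 0 for the sex difference and the slope, and the slopes of Col15a1, Col6a1 and Col7a1 became -0.0493, 0.099 and -0.0287.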
